A study of Mus musculus with 20 samples.

Results

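The genes described here encode adipokines and other hormonal proteins of adipocytes. They are the 10 rows of the deposited gene counts whose Ensembl identifier maps to Lep, Adipoq, Retn, Rbp4, Cfd, Nampt, Apln, Rarres2, Sfrp5 or Npr3, out of 46078 genes in the table, and all 10 were among the 21464 genes with enough counts to be tested. Of these, 9 encode proteins that are released from cells, whereas Npr3 encodes a membrane receptor that clears natriuretic peptides. The mRNA was measured by TRAP–seq, in which a GFP-tagged ribosomal protein is pulled down from a tissue lysate and the mRNA on those ribosomes is sequenced. The tissue was the epididymal adipose depot of AdipoERCre x NuTRAP mice on a C576BL6 background (spelled as in the labels), in which tamoxifen, given to all groups at 4 to 5 weeks of age, lets a Cre recombinase under the control of the Adipoq promoter switch the tag on in adipocytes. Each library came from 1 mouse.

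Mice of the short arm were 18 weeks old after 12 weeks of high-fat diet (HFD, group H) or chow (C). Others had 8 further weeks of chow, after HFD (HC) or after chow (CC_s), until an age of 26 weeks. Each of these 4 groups held 3 mice. Mice of the long arm were 31 weeks old after 25 weeks of HFD (HH) or chow (CC_l), or 39 weeks old after 8 further weeks of chow (HHC after HFD, CCC after chow), with 2 mice in each group. The authors state that control mice first ate a low-fat chow. In the 8 further weeks HC, CC_s, HHC and CCC mice had a different, standard chow. Age and type of chow therefore cannot be told apart between the chow groups of an arm. Columns of the short and long arm carry different name prefixes, whose meaning is not given. Every group with HFD in its history was therefore compared with the chow group of its own arm and age. Arm, age and whatever the prefixes stand for cannot be told apart between the arms.

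White adipocytes store fat and also act as endocrine cells. Leptin reports the size of the fat stores to the brain, adiponectin raises insulin sensitivity in liver and muscle, and other adipokines act on immune cells, vessels and neighbouring fat cells. Adipokine output is known to follow fat cell size, feeding state and inflammation.

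Counts on genes totalled between 10710277 and 36738954 per library. All 10 adipocyte markers (Plin1, Cidec, Lipe, Pnpla2, Fabp4, Pparg, Lpl, Slc2a4, Acsl1 and Cebpa) were detected in each of the 20 libraries, with a summed level of 19900 to 129000 CPM (counts per 1000000 counts of a library, with library sizes scaled by TMM). Some libraries stood apart from others of their group. In C replicates 1 and 2 the adipocyte markers summed to 27100 and 21500 CPM against 129000 in replicate 3, and 4 nuclear-retained RNAs (Malat1, Neat1, Meg3 and Kcnq1ot1) to 30200 and 37600 CPM against 4890. Fabp4 was the largest part of the adipocyte marker sum in every library but CCC replicate 2. It had 16200, 14000 and 104000 CPM in C replicates 1, 2 and 3. In CCC replicates 1 and 2 Fabp4 had 47300 and 5650 CPM, while Lpl had 4520 and 11000 CPM. HC replicate 3 had 20900 CPM of adipocyte markers against 66300 and 71000 in the other HC mice, 20400 CPM of nuclear-retained RNA against 2790 and 6230, and 434 CPM of 5 male germ cell genes against 3.06 and 7.23. CCC replicate 2 had 19900 CPM of adipocyte markers and 28100 CPM of nuclear-retained RNA, against 59900 and 7380 in replicate 1. CC_l replicate 1 held 3110 CPM of the male germ cell genes and replicate 2 held 9.04 CPM. The shallowest library was HHC replicate 1. The 7 epididymal epithelium genes summed to 1820 CPM in C replicate 1 against 18.2 and 25.7 CPM in the other C mice, to 380, 1190 and 138 CPM in H replicates 1, 2 and 3, to 111 CPM in HC replicate 2 and 166 CPM in HH replicate 1, and to at most 13.4 CPM in every other library. Their part in the H results was not tested.

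The test asked whether a gene's level differed between 2 groups of mice, with edgeR's quasi-likelihood fit over all libraries. A gene was called, and is said to have risen or fallen, when its nominal p was under 0.01 and its log2 fold change at least 1 in size. Since calls use the unadjusted p, a called gene can have an adjusted p above 0.05, which is given beside it. In H against C, 4 of the 10 adipokines were called, with Lep and Sfrp5 up and Cfd and Nampt down, against 6.49% of all tested genes. The mice of the groups did not overlap for 8 of the 10, against 25.1% of all tested genes. Lep, Apln, Rarres2, Sfrp5 and Npr3 were higher in every H mouse than in any C mouse, and Retn, Cfd and Nampt lower. In HC against CC_s, none was called in edgeR's test, against 1.74% of all genes, while 2 (Nampt and Rarres2) had an unadjusted p under 0.05, against 8.69% of all genes, and DESeq2 called Rarres2, against 3.39%. The groups did not overlap for Nampt alone, against 13.8% of all genes.

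In HH against CC_l, Cfd alone was called in edgeR's test, down, against 6.79% of all tested genes. DESeq2 called 3 of the 10 there, with Retn and Cfd down and Sfrp5 up, against 10.8% of all genes. With 2 mice against 2, ranges did not overlap for 8 of the 10 members, but also for 55.3% of all genes, so that this count says little about the adipokines. In HHC against CCC none was called in edgeR's test, against 3.12%, while 3 (Cfd, Apln and Sfrp5) had an unadjusted p under 0.05, against 10.7%, and DESeq2 called Cfd and Sfrp5, against 5.52%. Those same 3 genes had ranges that did not overlap, against 28.8% of all genes. Between the chow groups, Sfrp5 was called in CC_s against C, against 2.45% of genes, and ranges did not overlap for 3 members (Sfrp5 and Npr3 higher, Cfd lower), against 12.7%. None was called in CCC against CC_l in edgeR's test or by DESeq2, against 2.66% and 4.76% of genes, none had an unadjusted p under 0.05, against 11.5%, and Nampt alone did not overlap, against 35%.

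Over the 10 members the median log2 fold change was 0.37 in H, -0.07 in HC, -0.20 in HH and 0.01 in HHC. Over all tested genes it was -0.15, 0.27, -0.23 and -0.06 in the same order. As a group, therefore, the adipokines had no common direction, with 5 of the 10 above and 5 below 0 in each of these 4 comparisons. No member's effect differed at an adjusted p under 0.05 in edgeR's test. The pairs compared were H and HC, HH and HHC, H and HH, and HC and HHC. In that order, 3, 1, 1 and 0 members had a nominal p under 0.05, against 11.8%, 15.5%, 5.79% and 11.8% of all genes. At an adjusted p under 0.05 DESeq2 gave 2 members for H and HC and 1 for HH and HHC, against 1.86% and 5.66% of all genes.

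**Figure D1:**
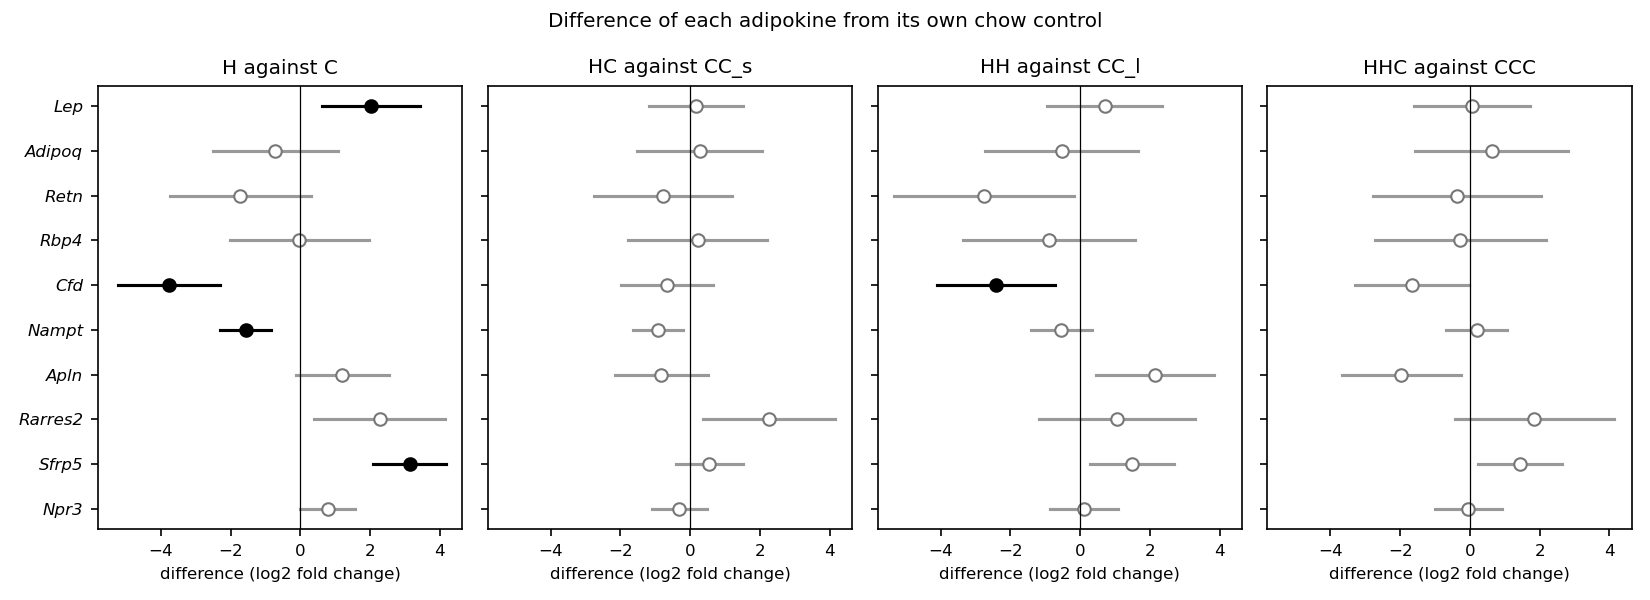
Difference of each of the 10 genes from the chow group of the same arm and age, as log2 fold change on the horizontal axis with its 95% interval from edgeR's quasi-likelihood fit; filled symbols are called genes. Lep (2.02) and Sfrp5 (3.13) lie to the right and Cfd (-3.76) and Nampt (-1.57) to the left in H, and Cfd (-2.40) is the filled symbol in HH.

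The 4 genes called in H are shown with the sequence around their start, since 2 of them rose and 2 fell in the same mice. Each run holds 300 bases, from 250 before to 50 after the start of the RefSeq transcript on build GRCm38.p6, 5′ to 3′ on the strand of the gene. Capitals mark matches on either strand to 4 motifs, namely TTGCGCAA (a palindrome of the kind that C/EBP factors bind), the CCAAT box, the TATA-like TATAA, and the GC box GGGCGG.
Lep, chr6:29059971-29060270, plus strand: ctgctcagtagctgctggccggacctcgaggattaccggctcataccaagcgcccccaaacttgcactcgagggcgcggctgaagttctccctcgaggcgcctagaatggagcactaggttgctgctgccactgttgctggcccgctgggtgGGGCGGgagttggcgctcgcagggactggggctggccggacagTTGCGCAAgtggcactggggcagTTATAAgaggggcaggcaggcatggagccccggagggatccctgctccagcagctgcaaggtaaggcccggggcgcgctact
Sfrp5, chr19:42202203-42202502, minus strand: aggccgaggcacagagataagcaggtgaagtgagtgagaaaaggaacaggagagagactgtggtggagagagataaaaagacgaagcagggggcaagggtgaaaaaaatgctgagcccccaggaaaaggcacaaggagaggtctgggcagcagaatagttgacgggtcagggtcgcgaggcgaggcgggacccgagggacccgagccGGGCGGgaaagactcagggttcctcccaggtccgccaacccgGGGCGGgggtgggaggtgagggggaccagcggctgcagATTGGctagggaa
Cfd, chr10:79890603-79890902, plus strand: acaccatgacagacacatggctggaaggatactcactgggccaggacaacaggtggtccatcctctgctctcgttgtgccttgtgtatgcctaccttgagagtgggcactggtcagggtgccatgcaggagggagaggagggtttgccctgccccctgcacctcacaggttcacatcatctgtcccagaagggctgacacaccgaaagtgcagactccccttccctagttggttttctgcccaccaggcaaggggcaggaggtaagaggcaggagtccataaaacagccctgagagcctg
Nampt, chr12:32820085-32820384, plus strand: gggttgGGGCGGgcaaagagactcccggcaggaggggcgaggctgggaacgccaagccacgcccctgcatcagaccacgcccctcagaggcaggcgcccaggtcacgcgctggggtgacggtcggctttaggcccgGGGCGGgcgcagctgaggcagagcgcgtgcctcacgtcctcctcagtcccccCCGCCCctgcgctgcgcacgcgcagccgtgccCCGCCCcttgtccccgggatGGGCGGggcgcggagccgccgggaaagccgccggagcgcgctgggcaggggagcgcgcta
In the Lep window a GC box is followed by the palindrome TTGCGCAA and by a TATA-like stretch that matched on both strands with overlap. TTGCGCAA was found in 0.183% of the 32851 promoter windows of that table, and in no other of the 10 windows of members (9 members had a window, Rbp4 having 2). The Sfrp5 window held 2 GC boxes and 1 CCAAT, the Nampt window 5 GC boxes, and the Cfd window none of the 4 motifs. The GC box occurred in 35.7%, the CCAAT box in 37.4% and the TATA-like motif in 24.9% of all windows. These matches describe letters in a window and were not tested against the measured levels.

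Levels of different genes were compared per length, as RPKM (CPM per kilobase of exon). In chow-fed C mice the order of mean RPKM was Cfd 11520 ± 1400, Retn 3151 ± 2709, Adipoq 1887 ± 1436, Rbp4 620 ± 532 and Lep 325 ± 277 (SD, n = 3). The remaining members were lower, with Nampt at 34.8 ± 13.5, Npr3 at 34.4 ± 10.5, Rarres2 at 20.8 ± 0.818, Sfrp5 at 13.4 ± 3.35 and Apln at 3.82 ± 1.36 RPKM (SD, n = 3). In H mice Lep came first at 1316 ± 189 RPKM, followed by Adipoq at 1148 ± 190, Retn at 953 ± 466, Cfd at 852 ± 146 and Rbp4 at 607 ± 10.3 (SD, n = 3). Cfd thus went from the first to the fourth place and Lep from the place after Rbp4 to the first, although in H the means of Lep, Adipoq, Retn and Cfd lay within the spread of their neighbours. In CC_l mice Cfd was again first at 12600 ± 2358 and Lep at 542 ± 97.4 RPKM, and in HH mice Cfd stood at 2385 ± 1248, Adipoq at 2140 ± 175 and Lep at 879 ± 228 RPKM (SD, n = 2). The 10 members together took between 0.509% (HC replicate 3) and 3.65% (CC_l replicate 2) of all counts in a library.

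**Figure D2:**
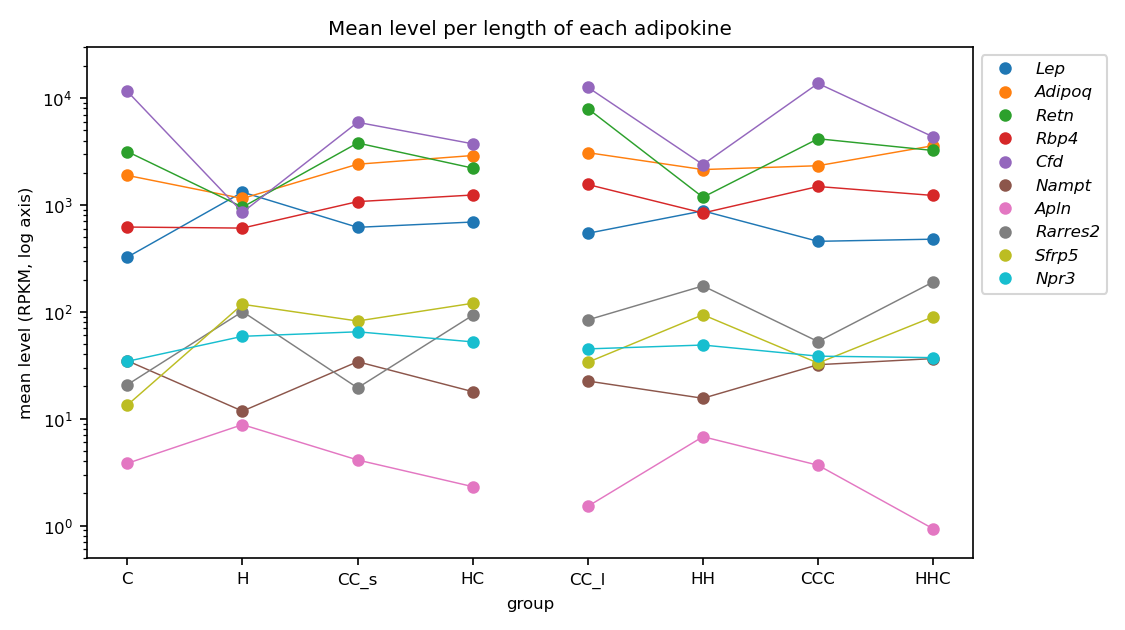
Mean level per length (RPKM, log axis) of each of the 10 genes in the 8 groups; points are means of 3 mice in the short arm and 2 in the long arm, no error is drawn, and lines join the groups of an arm for the eye. Cfd falls from 11520 RPKM in C to 852 in H while Lep goes from 325 to 1316.

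Lep (ENSMUSG00000059201, chromosome 6, 29060220 to 29073877 on the plus strand of GRCm38) encodes leptin, which signals energy stores to the hypothalamus. Its level was 447, 667 and 2152 CPM in the C mice and 5066, 3803 and 4370 CPM in the H mice. Every H mouse was above every C mouse, and C replicate 3 was the highest of its group. Lep rose 4.05-fold in H (log2 fold change 2.02, SE 0.66, adjusted p = 0.125 in edgeR's quasi-likelihood test). The call depended on the number of mice, since it was lost without C replicate 1 (1.72), C replicate 2 (1.76), or H replicate 1, 2 or 3 (1.91, 2.12 and 2.03), while the log2 fold change was 2.98 without C replicate 3. Retaining only H and C in the fit (1.96) or blocking on the replicate number (2.09) also ended the call.

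After 8 weeks of chow, Lep stood at 3809, 2542 and 606 CPM in the HC mice against 1655, 2121 and 2430 CPM in CC_s. The groups overlapped, with HC replicate 3 the lowest of all 6 mice. Between them Lep differed by 0.16 on the log2 scale (95% interval -1.18 to 1.51), 0.61 without HC replicate 3 and -0.39 without HC replicate 1. In the long arm, HH mice had 3489 and 2408 CPM against 1588 and 2050 CPM in CC_l, a log2 fold change of 0.70 (SE 0.79) that was not called. HHC mice had 1366 and 1839 CPM and CCC mice 1746 and 1315 CPM, so these groups overlapped. The difference between the effects in H and HC was 1.85 (SE 0.91, adjusted p = 0.436), and that between HH and H was -1.32 (adjusted p = 0.88), so neither passed the test.

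**Figure D3:**
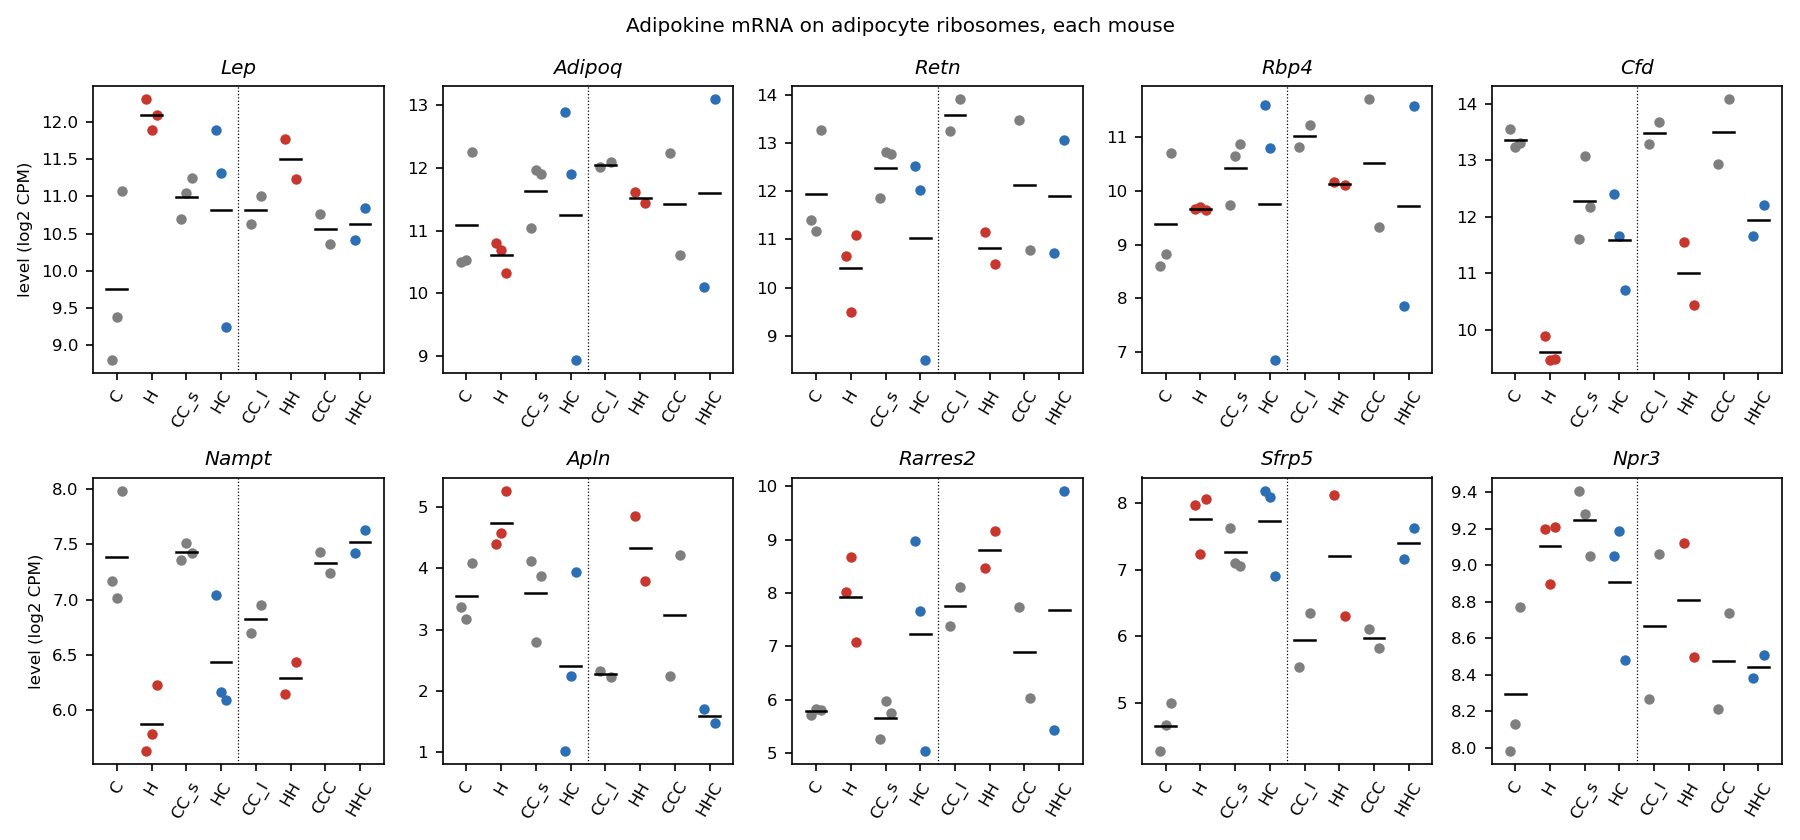
Level (log2 CPM) of each of the 10 genes in each mouse, by group, with chow groups in grey, HFD groups in red, and groups switched from HFD to chow in blue; points are mice, bars are group means and the dotted line divides the short from the long arm. Lep lies between 11.89 and 12.31 in the H mice and at 11.07 or lower in the C mice, while Cfd lies at 9.88 or lower in H and at 13.24 or higher in C.

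Adipoq (ENSMUSG00000022878, chromosome 16, 23146536 to 23158028, plus strand) encodes adiponectin, an insulin-sensitizing hormone made almost only by adipocytes, and its promoter also drives the Cre of these mice. Its level was 1446, 1475 and 4895 CPM in C and 1795, 1669 and 1291 CPM in H. The groups overlapped because 2 of the C mice were as low as the H mice. Adipoq differed by -0.72 on the log2 scale (95% interval -2.51 to 1.08) and turned to 0.12 without C replicate 3. In HC the values were 7645, 3860 and 492.6 CPM against 2117, 4012 and 3822 CPM in CC_s, so HC held both the highest and the lowest mouse of the short arm. That log2 fold change was 0.27 with all mice and 0.79 without HC replicate 3, and -0.61 without HC replicate 1. HH mice (3126 and 2784 CPM) were below CC_l mice (4156 and 4354 CPM) with a log2 fold change of -0.53 (95% interval -2.72 to 1.67), which scaling to the adipocyte markers turned to 0.15. HHC mice had 1096 and 8796 CPM, which enclosed the CCC values of 4850 and 1572 CPM. Adipoq therefore showed no called difference, and its intervals included changes of more than 2-fold (1 on the log2 scale) in both directions in all 4 comparisons with HFD in the history.

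Ratios of members within a mouse do not depend on how libraries are scaled. The log2 ratio of Lep to Adipoq CPM was -1.69, -1.14 and -1.19 in the C mice and 1.5, 1.19 and 1.76 in the H mice. Thus every H mouse had more Lep than Adipoq counts and every C mouse fewer, with a difference of 2.82 between the means. This gave p = 0.1 in an exact two-sided permutation test, the smallest p that 3 mice against 3 allow, and an adjusted p of 0.4 over the 16 ratio comparisons made. The ratio of Lep to Cfd was between 2.43 and 2.62 in H and between -4.76 and -2.23 in C, a difference of 6.11 in the means (exact permutation p = 0.1, adjusted p = 0.4).

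The HC and CC_s mice overlapped in the ratio of Lep to Adipoq (-1.01, -0.60 and 0.30 against -0.36, -0.92 and -0.65). Although HC replicate 3 was low for both genes, its ratio was the highest of its group. In HH the ratio was 0.16 and -0.21 and in CC_l -1.39 and -1.09, without overlap and with a difference of 1.22, for which 2 mice against 2 allow no exact p below 0.333. The ratio of Retn to Adipoq was lower in every HC mouse (-0.37, 0.11 and -0.45) than in any CC_s mouse (0.81, 0.85 and 0.88), with a difference of -1.08 (exact permutation p = 0.1, adjusted p = 0.4). HHC mice (0.62 and -0.05) and CCC mice (1.23 and 0.17) overlapped in that ratio.

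**Figure D4:**
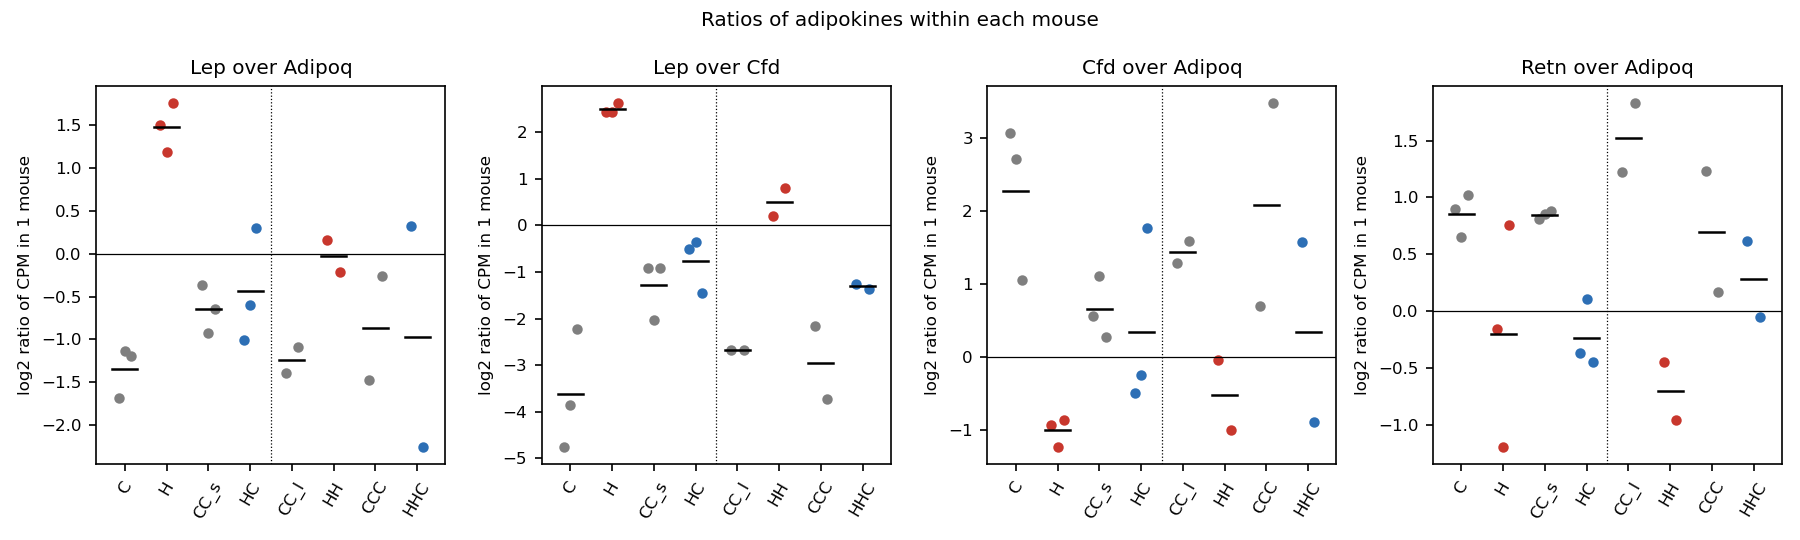
Log2 ratio of the CPM of 2 genes in the same mouse, by group, with chow groups in grey, HFD groups in red and groups switched to chow in blue; points are mice and short bars are group means. Lep over Adipoq is above 0 in all 3 H mice (1.19 to 1.76) and below 0 in all 3 C mice (-1.69 to -1.14).

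Retn (ENSMUSG00000012705, chromosome 8, 3655770 to 3660110, plus strand) encodes resistin, which in mice comes mainly from adipocytes and impairs insulin action. It had 2703, 2315 and 9911 CPM in C and 1602, 725 and 2186 CPM in H. Every H mouse was below every C mouse, the gap being small because of C replicates 1 and 2. The log2 fold change of -1.73 (SE 0.96, adjusted p = 0.376) was not called, and it was -0.74 without C replicate 3. In the long arm Retn had 9688 and 15450 CPM in CC_l and 2294 and 1427 CPM in HH, which left a wide gap between the groups. There the log2 fold change was -2.76 (SE 1.22, adjusted p = 0.257), which DESeq2 called (-2.75) and edgeR's test did not. After the switch to chow, HC mice had 5934, 4170 and 361 CPM against 3713, 7237 and 7024 CPM in CC_s, and HHC mice 1682 and 8513 CPM against 11350 and 1775 CPM in CCC. Both pairs of groups overlapped. The log2 fold change was -0.78 in HC (-0.25 without HC replicate 3) and -0.36 in HHC (0.37 without HHC replicate 1).

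Rbp4 (ENSMUSG00000024990, chromosome 19, 38116629 to 38125281, minus strand) encodes the carrier of retinol in blood, which liver and adipocytes release. It lay between 803.5 and 830 CPM in the 3 H mice and at 388, 454 and 1658 CPM in C, so that the H values fell inside the C range. Rbp4 differed by -0.03 on the log2 scale (95% interval -2.03 to 1.97) and 0.95 without C replicate 3. HH mice (1147 and 1108 CPM) were below CC_l mice (1792 and 2377 CPM), with -0.89 (SE 1.17, adjusted p = 0.733). HC and HHC spread widely, from 115 to 3092 CPM and from 230 to 3060 CPM, around their controls at 854.5 to 1873 CPM in CC_s and 637 to 3355 CPM in CCC. Rbp4 and Adipoq were the most alike of the members across the 20 libraries, with a root mean square distance of 0.42 between their centred log2 CPM, and the low HC and HHC libraries were the same for both.

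Cfd (ENSMUSG00000061780, chromosome 10, 79890853 to 79892655, plus strand) encodes adipsin, the serine protease that cleaves factor B to start the alternative complement pathway. Its level was 12090, 9652 and 10130 CPM in the C mice and 940.5, 706 and 709 CPM in the H mice. The lowest C mouse was far above the highest H mouse, and neither group had a mouse that stood apart for this gene. Cfd fell in H to 0.0739 of its level in C (log2 fold change -3.76, SE 0.69, adjusted p = 0.00996 in edgeR's quasi-likelihood test), and leaving out any 1 of the 6 mice gave -3.91 to -3.61, still called. In the C libraries it took 0.775% to 1.30% of all counts and in the H libraries 0.0742% to 0.102%. Cfd also fell in HH, where the mice had 3013 and 1386 CPM against 10080 and 13150 CPM in CC_l. There the log2 fold change was -2.40 (SE 0.80, adjusted p = 0.132). It was -1.93 without HH replicate 2, -3.05 without HH replicate 1, -2.57 and -2.17 without CC_l replicates 1 and 2, and -1.68 when scaled to the adipocyte markers, none of which was called.

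With the return to chow, Cfd reached 5404, 3242 and 1666 CPM in HC against 3118, 8668 and 4601 CPM in CC_s, and these groups overlapped. Cfd differed by -0.67 on the log2 scale (95% interval -1.98 to 0.64), -0.34 without HC replicate 3, and 0.05 when scaled to the adipocyte markers. The effect in H was lower than that in HC by 3.09 on the log2 scale (SE 0.90, adjusted p = 0.325). It was 1 of 3 members with a nominal p under 0.05 in this test of the difference, with Sfrp5 and Apln, against 11.8% of all genes. The chow groups also did not overlap, every CC_s mouse being below every C mouse (log2 fold change -0.96, adjusted p = 0.537, not called, but -2.28 and called when scaled to the adipocyte markers). In the long arm, HHC mice had 3243 and 4741 CPM, both below the CCC mice at 7823 and 17430 CPM, with -1.66 (SE 0.78, adjusted p = 0.46). That value was -2.13 without CCC replicate 1 and -0.98 without CCC replicate 2. Cfd was called down there by DESeq2 and when scaled to the adipocyte markers. The effects in HH and HHC differed by -0.74 (adjusted p = 0.796), and those in HHC and HC by -0.99 (adjusted p = 0.724).

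Nampt (ENSMUSG00000020572, chromosome 12, 32819545 to 32853349, plus strand) encodes the rate-limiting enzyme of NAD salvage from nicotinamide, which is also found outside cells as visfatin. Its level was 144, 129 and 254 CPM in C and 49.0, 55.0 and 74.4 CPM in H. The groups did not overlap, and C replicate 3 was the highest. Nampt fell in H with a log2 fold change of -1.57 (SE 0.35, adjusted p = 0.0269 in edgeR's quasi-likelihood test), and between -1.76 and -1.20 with 1 mouse left out, each still called. In HC it was at 132, 71.6 and 68.0 CPM against 164, 182 and 171 CPM in CC_s. Every HC mouse was lower than every CC_s mouse. The log2 fold change of -0.93 (SE 0.34, adjusted p = 0.536) missed both thresholds, was -0.77 without HC replicate 3 and -1.31 without HC replicate 1, and turned to 0.07 when scaled to the adipocyte markers. In HH it had 70.4 and 86.4 CPM against 104 and 123 CPM in CC_l (-0.54, adjusted p = 0.518), and in HHC 171 and 198 CPM against 172 and 151 CPM in CCC (0.19, adjusted p = 0.921). The direct test of HHC against HC gave a difference of 1.12 (SE 0.54, adjusted p = 0.428). No member had a nominal p under 0.05 in that test, against 11.8% of all genes.

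Apln (ENSMUSG00000037010, chromosome X, 48025146 to 48034853, minus strand) encodes apelin, a peptide of adipocytes and of growing vessels that acts on the receptor Aplnr. Counts were low, from 38 to 868 per library, so counting error adds to the spread. It had 10.2, 8.93 and 16.9 CPM in C and 20.9, 23.6 and 38.6 CPM in H. The H mice were all higher, but the log2 fold change of 1.2 (SE 0.63, adjusted p = 0.347) was not called. HH mice had 28.9 and 13.8 CPM against 4.94 and 4.58 CPM in CC_l, with 2.16 (SE 0.80, adjusted p = 0.175). Apln was called there with only HH and CC_l in the fit and without the filter on low counts. HHC mice had 3.18 and 2.69 CPM, the lowest group of the series, against 4.66 and 18.4 CPM in CCC, with -1.98 (SE 0.81, adjusted p = 0.391) and -0.67 without CCC replicate 2. Without the filter on low counts Apln was called down in HHC. In the long arm Apln was thus above its control on HFD and below it after the switch to chow. The difference of these effects was 4.14 (SE 1.14, adjusted p = 0.0905), so it missed the adjusted threshold. It was the only member with a nominal p under 0.05 in that test, against 15.5% of all genes. In HC the values were 1.92, 4.66 and 15.3 CPM against 17.3, 6.88 and 14.6 CPM in CC_s, where HC replicates 1 and 2 lay below all CC_s mice and replicate 3 among them. The log2 fold change was -0.83 with it and -1.98 without it, the latter called, and 0.97 under scaling to the adipocyte markers.

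The receptor Aplnr, a gene of vascular endothelium, was called in 3 of the 4 comparisons with HFD in the history. Aplnr rose from a mean of 13.2 CPM in C to 101 CPM in H (log2 fold change 2.94, SE 0.59, adjusted p = 0.0164) and from 6.90 CPM in CC_l to 85.6 CPM in HH (3.64, SE 0.75, adjusted p = 0.0253). It fell from 14.0 CPM in CCC to 1.68 CPM in HHC (-3.07, SE 0.76, adjusted p = 0.196), a call lost without CCC replicate 2 (-2.06) or HHC replicate 2 (-2.68). The endothelial markers Pecam1, Cdh5, Kdr, Vwf, Emcn, Tie1 and Cldn5, none of them at 0 in any library, summed to 272 to 725 CPM in C and 1840 to 2130 CPM in H. They summed to 185 and 202 CPM in CC_l, 1970 and 946 CPM in HH, 274 and 617 CPM in CCC, and 87.8 and 115 CPM in HHC. Of the 7, 5 rose in H, 7 rose in HH and 2 fell in HHC, against 3.57%, 4.92% and 2.67% of all tested genes. Their part in the Apln result was not tested. In a pulldown from whole tissue, fewer cells of a type and less RNA per cell cannot be told apart.

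**Figure D5:**
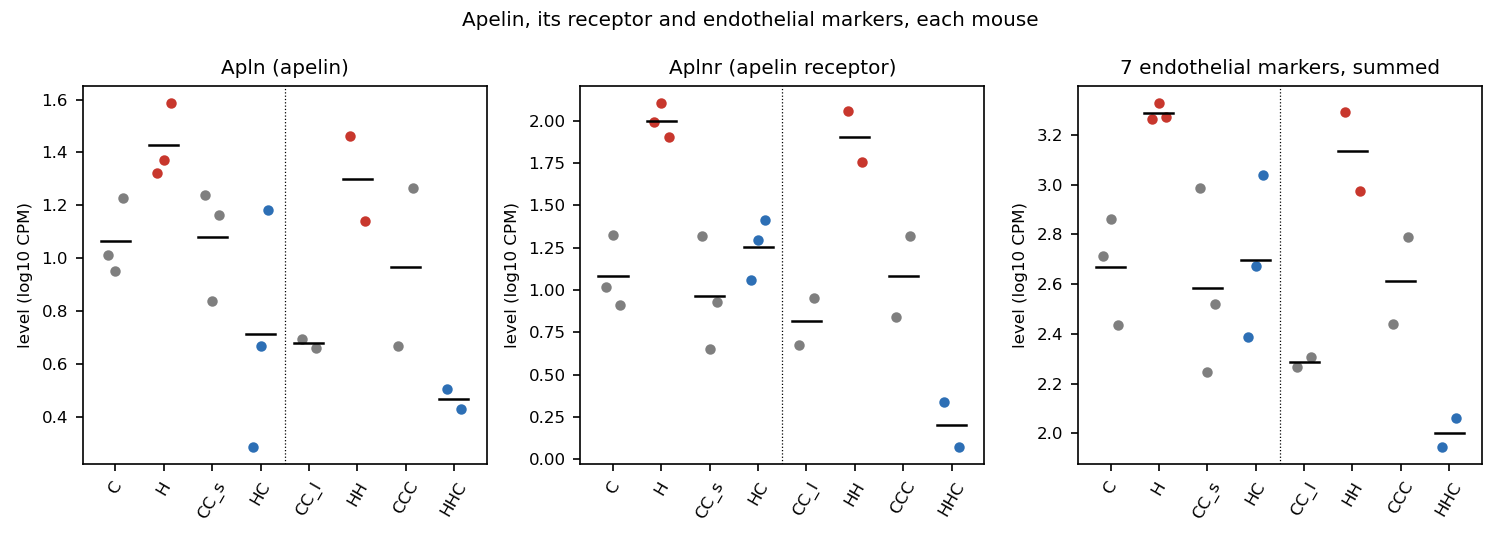
Level (log10 CPM) of Apln, of its receptor Aplnr and of 7 summed endothelial markers in each mouse, by group, with chow groups in grey, HFD groups in red and groups switched to chow in blue; points are mice and bars are means of the log10 values. All 3 measures have their lowest group mean in HHC, where Apln has 2.69 and 3.18 CPM and the endothelial markers 87.8 and 115 CPM.

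Rarres2 (ENSMUSG00000009281, chromosome 6, 48569696 to 48572789, minus strand) encodes chemerin, which attracts macrophages and dendritic cells through Cmklr1. In C it had 52.7, 56.7 and 56.2 CPM, and in H 257, 407.5 and 135 CPM. All H mice were higher, with a wider spread than in C. The log2 fold change of 2.27 (SE 0.90, adjusted p = 0.204) missed the threshold of edgeR's test but was called by DESeq2 (2.19), without the filter on low counts (2.28) and with only H and C in the fit (2.18). HC mice had 504, 203 and 32.5 CPM against 38.4, 62.6 and 53.8 CPM in CC_s. Of the HC mice, replicates 1 and 2 were above and replicate 3 below all CC_s mice. The log2 fold change was 2.26 (SE 0.89, adjusted p = 0.544), and it was 2.77 and called without HC replicate 3 but 1.19 without HC replicate 1.

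In the long arm Rarres2 had 351 and 577 CPM in HH against 167 and 278.5 CPM in CC_l (1.06, adjusted p = 0.634). HHC replicate 2 had the highest level of the series at 966 CPM and HHC replicate 1 was at 43.3 CPM, against 214 and 65.3 CPM in CCC. That fold change was 1.85 with both mice and -1.69 without HHC replicate 2. Exons of Rarres2 share 892 bases with Lrrc61 on the opposite strand. Since the strand setting of the counting is not stated, reads of the 2 genes may not be separable. Lrrc61 stood at 5.52 to 22.9 CPM, which cannot show how reads in the shared bases were assigned. Among the receptors of chemerin, Cmklr1 fell in H from 113 to 30.3 CPM (log2 fold change -1.90, SE 0.50, adjusted p = 0.0602, and -1.66 and not called without H replicate 1 or 2), and Gpr1 rose in HH from 0.838 to 13.3 CPM (4.01, SE 1.17, adjusted p = 0.0851), which was 3.35 without CC_l replicate 1 and 2.97 without HH replicate 1, neither called.

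Sfrp5 (ENSMUSG00000018822, chromosome 19, 42197971 to 42202252, minus strand) encodes a secreted decoy that binds Wnt5a and dampens Wnt signalling. It stood at 19.2, 25.4 and 31.9 CPM in C and at 253, 150 and 267 CPM in H. All H mice were several times above all C mice. Sfrp5 rose 8.76-fold in H (log2 fold change 3.13, SE 0.49, adjusted p = 0.005 in edgeR's quasi-likelihood test), and it stayed between 2.98 and 3.35 with 1 mouse left out, each still called. The older chow mice of the same arm, which had also been switched to another chow, were high too. CC_s mice had 196, 137 and 134 CPM, all above the C mice, so that Sfrp5 rose 6.11-fold without any HFD (2.61, SE 0.48, adjusted p = 0.393). Scaled to the adipocyte markers this value was 1.28 and not called.

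HC mice had 291, 274 and 119 CPM of Sfrp5 and overlapped with CC_s, with a log2 fold change of 0.55 (SE 0.46, adjusted p = 0.753). The effect in H exceeded that in HC by 2.58 (SE 0.65, adjusted p = 0.325). The mean level of Sfrp5 was 223 CPM in H and 228 CPM in HC, while the chow groups had means of 25.5 CPM in C and 156 CPM in CC_s. In the long arm HH had 278 and 78.7 CPM against 46.4 and 81.6 CPM in CC_l, so that HH replicate 2 fell inside the chow range. That value was 1.48 (SE 0.57, adjusted p = 0.193) with both HH mice, 2.14 without HH replicate 2 and 0.31 without HH replicate 1. It was not called with all mice in edgeR's test, but was by DESeq2 (1.48), without the filter on low counts (1.6) and when scaled to the adipocyte markers (2.22). HHC mice had 143 and 198 CPM, both above the CCC mice at 69.2 and 56.7 CPM (1.44, SE 0.57, adjusted p = 0.378), and the value stayed between 1.18 and 1.65 with 1 mouse left out but was 0.43 when scaled to the adipocyte markers. The effect in HH was below that in H by 1.65 (adjusted p = 0.848), and Sfrp5 was the only member with a nominal p under 0.05 in that test, against 5.79% of all genes.

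Npr3 (ENSMUSG00000022206, chromosome 15, 11839896 to 11907287, minus strand) encodes the receptor that takes up and degrades natriuretic peptides, which otherwise stimulate lipolysis. It varied least between groups, with group means of log2 CPM that spanned 0.95, against 1.44 to 3.91 for the other members. C mice had 253, 280 and 436 CPM, and H mice 590, 478 and 592 CPM. The H mice were all higher, yet the log2 fold change of 0.78 (SE 0.38, adjusted p = 0.304) was not called. CC_s mice, at 678, 621 and 531 CPM, were above the C mice too (0.92, adjusted p = 0.412, and -0.32 when scaled to the adipocyte markers). HC mice (529, 586 and 357 CPM) overlapped with them. In HH (556 and 361 CPM against 309 and 535 CPM in CC_l) and in HHC (333.5 and 366 CPM against 295 and 427 CPM in CCC) the groups overlapped, with log2 fold changes of 0.12 (95% interval -0.85 to 1.09) and -0.05 (95% interval -1.01 to 0.92).

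Ordered by mean log2 CPM over the 8 groups, Lep and Apln were highest in H and then HH, whereas Cfd, Nampt, Retn and Adipoq were lowest in H. Cfd, Nampt and Retn shared their last 3 places, with HC, HH and H in falling order. Most neighbours in these orders could not be separated by their mice. Lep separated H from HH without overlap but no other neighbouring groups, Cfd separated C from CC_s and HH from H, and Rbp4 and Npr3 separated none.

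Genes that act with the adipokines were described as 3 lists, of receptors, of binding or processing partners, and of other factors that fat tissue secretes. Of 17 receptor genes tested, 3 rose and 1 fell in H, where 3.57% of all tested genes rose and 2.92% fell, with a median of 0.76 (log2 fold change) against -0.15 over all genes. The 3 that rose were Aplnr (above), C3ar1, the receptor of the complement fragment C3a (3.00, SE 0.72, adjusted p = 0.0396), and Cdh13, which binds adiponectin on endothelium (2.08, SE 0.64, adjusted p = 0.1). The call of Cdh13 was lost in 4 of the 6 fits without 1 mouse (1.77 without C replicate 3). In HH 4 rose (Gpr1, C3ar1, Aplnr and Cdh13), where 4.92% of all genes rose and 1.88% fell, with a median of 1.05. Cdh13 went from 27.0 CPM in CC_l to 255 CPM in HH (3.24, SE 0.82, adjusted p = 0.0496). After the switch to chow, 1 of 17 rose in HC, where 1.57% of all genes rose and 0.172% fell, and 1 of 17 fell in HHC, where 0.447% rose and 2.67% fell. The gene that rose in HC was C3ar1, with 16.0, 21.2 and 76.9 CPM against 7.68, 6.64 and 5.32 CPM in CC_s (2.54, SE 0.71, adjusted p = 0.536). Its call was lost without CC_s replicate 3 (2.41) or without HC replicate 3, the highest mouse (1.5). The gene that fell in HHC was Aplnr, given above.

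The partners held 19 tested genes, and their median difference on the log2 scale was 0.13 in H and 0.57 in HH. In HH 6 of the 19 rose, against 4.92% of all genes. Among the 6 were C3 and Cfp of the complement pathway that Cfd serves. C3, its central component, went from 214 to 1190 CPM (log2 fold change 2.48, SE 0.83, adjusted p = 0.135), and Cfp, which stabilizes its convertase, from 19.1 to 88.8 CPM (2.22, SE 0.66, adjusted p = 0.0953). Thus in HH both partners rose in the libraries in which Cfd itself fell, although each call was lost in 2 of the 4 fits without 1 mouse (C3 1.75 to 3.39, Cfp 2.05 to 2.45). Cfp also rose in HC (1.54, SE 0.53, adjusted p = 0.536), a call lost in 5 of the 6 fits without 1 mouse (1.27 without HC replicate 3). Nmrk1, a kinase that makes NAD from nicotinamide riboside, fell in HHC (-1.24, SE 0.38, adjusted p = 0.276), a call lost in 3 of the 4 (-1.09 without CCC replicate 2).

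Of 41 other secreted factors tested, 8 rose and 4 fell in H, 4 rose and 1 fell in HC, 9 rose and 1 fell in HH, and 4 fell in HHC. Over all 21464 genes, 766 rose and 626 fell in H, 337 rose and 37 fell in HC, 1055 rose and 403 fell in HH, and 96 rose and 573 fell in HHC. Ccn5, a matricellular protein, rose in H (log2 fold change 3.25, SE 0.54, adjusted p = 0.00612), HC (1.55, SE 0.50, adjusted p = 0.536) and HH (3.01, SE 0.65, adjusted p = 0.0287). Its calls in H and HH held without any 1 mouse, and that in HC was lost in 5 of 6 such fits (1.19 to 1.88). Vegfa, the growth factor of vessels, fell in H (-2.63, SE 0.51, adjusted p = 0.0139) and in HHC (-2.45, SE 0.63, adjusted p = 0.202). Vegfa stood at 83.3 and 338 CPM in CCC and at 39.2 and 38.1 CPM in HHC. Its call in HHC was lost in 2 of the 4 fits without 1 mouse. The value was -1.11 without CCC replicate 2, which had the higher level, and -2.43 without HHC replicate 2. Agt, the angiotensin precursor, fell in HHC from a mean of 104 to 16.6 CPM (-2.64, SE 0.66, adjusted p = 0.196). That call was lost in 2 of the 4 fits, with -1.25 without CCC replicate 2 and -2.07 without HHC replicate 1. Angptl8, an inhibitor of lipoprotein lipase, fell from 397 and 116 to 16.9 and 10.9 CPM (-4.21, SE 1.30, adjusted p = 0.276). That call was lost in 3 of the 4 fits, with -3.06 without CCC replicate 1.

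Markers of other cells moved with several of these results. The 11 macrophage markers, none of them at 0 in any library, summed to 239 to 413 CPM in C and 664 to 3410 CPM in H, and to 252 and 383 CPM in CC_l and 3580 and 4830 CPM in HH. In HC they summed to 570, 599 and 1540 CPM, with replicate 3 the highest, against 256 to 328 CPM in CC_s. Of the 11, 7 rose in H, 6 in HC and 11 in HH, against 6.49%, 1.74% and 6.79% of all genes called in either direction, and in HH C3ar1 and the complement partners rose as well. The 8 progenitor markers summed to 547 and 942 CPM in CC_l and 5520 and 8290 CPM in HH. There 6 of the 8 rose, against 4.92% of all genes. Their part in the results on Rarres2, the receptors and the partners was not tested. Over the 10 adipocyte markers the median difference was -0.26 in H and -1.15 in HH on the log2 scale. Cfd thus lay further down than they did in both. Of the 10, 1 fell in H and none in HH, against 2.92% and 1.88% of all genes.

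Outside the 10 members, the genes most like Lep across the 20 libraries were Gmppb, Srpx2 and Prelp, with root mean square distances of 0.38, 0.40 and 0.41 between centred log2 CPM, where Lep itself varied by 0.91. Those most like Adipoq were Mccc2, Cox16 and Atp5b, at 0.33, 0.34 and 0.34 against its own 1.01. Those most like Retn were Gm14403, Thrsp and Echdc3, at 0.55, 0.57 and 0.58 against 1.39. These distances describe 20 libraries that differ in group and depth, and carry no test.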

How the data were processed

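TRAP-seq libraries from 20 mice were analysed, with 3 mice in each of the 4 short-arm groups and 2 in each of the 4 long-arm groups. The authors trimmed reads with Trim Galore 0.6.6, checked them with FastQC 0.11.9, aligned them to mm10 with HISAT2 2.2.1 and deposited raw counts per Ensembl gene from featureCounts in Subread 2.0.1. Which annotation was used, whether strand was considered and how read pairs were counted are not given in the sources used here. Between 89.6% and 95.8% of the nonzero counts up to 10 were even, so most read pairs appear to count as 2. Totals ran from 10710277 to 36738954, and 3 counts were worth 0.0817 to 0.280 CPM of the unscaled totals.

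Symbols, exon lengths and coordinates came from GENCODE vM21 (GRCm38), which matched 98.0% of the 46078 identifiers. Groups were taken from the labels. All 20 libraries entered 1 edgeR 4.0.16 fit (R 4.3.3) with TMM scaling, the low-count filter of edgeR and the quasi-likelihood test, adjusted by Benjamini-Hochberg over 21464 genes. The common dispersion was 0.462. Called genes had a nominal p under 0.01 and a log2 fold change of at least 1 in size, and interactions used an adjusted p under 0.05. CPM uses TMM-scaled library sizes, log2 CPM a prior count of 2, and RPKM divides CPM by exon length. The fit was checked on simulated counts. Ratios were compared by exact two-sided permutation tests. Named genes of the 3 lists were the called ones with the largest change, up to 4 per list and comparison. Some genes that this rule names are not reported here. The genes described and the lists were chosen with earlier results of these data known. DESeq2 1.42.0 (called by the same thresholds), RLE scaling, no filter, fits of 2 groups, a replicate block, halved counts and leaving out each mouse were alternatives, and scaling to the adipocyte markers, a crossed pairing and leaving out each mouse for the named genes of the lists were added after seeing the data. Same-numbered mice deviated together with correlations of -0.277 to 0.282, so the numbers were not used as pairs. Replicates came from separate mice, and no 2 libraries of the same group agreed within sampling noise. Promoter windows are from RefSeq on GRCm38.p6, and figures were drawn with matplotlib 3.10.9.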

Additional observations from a re-analysis of the deposited data

Results flagged for a closer look

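For 5 pairs of comparisons, every mouse of one group lay on one side of the mean of its chow control. Every mouse of the other group lay on the opposite side of its own. How many of all tested genes met this rule was not counted, so the number of pairs says little about the adipokines. The differences given here are between mean log2 CPM differences, and each pair was also tested by an interaction term in edgeR's quasi-likelihood fit, none with an adjusted p under 0.05. Apln was 2.05 above its control in HH and 1.64 below it in HHC (-1.64), a difference of 3.68, with an interaction of 4.14 (adjusted p = 0.0905). Nampt was at -0.54 in HH and 0.19 in HHC, a difference of -0.73 (interaction -0.73, adjusted p = 0.575). Nampt was also at -1.0 in HC against the 0.19 in HHC, a difference of -1.19 (interaction of HHC minus HC 1.12, adjusted p = 0.428). Scaling to the adipocyte markers turned the direction of Nampt in HC, HH and HHC. That scaling also turned the direction of Npr3 in HC and of the fitted value of Rbp4 in H. Npr3 was at 0.81 in H and -0.34 in HC, a difference of 1.15 (interaction 1.09, adjusted p = 0.431). Rbp4 was at 0.30 in H and -0.87 in HH, a difference of 1.17 (interaction of HH minus H -0.85, adjusted p = 0.947). The 0.30 is a mean of log2 values, while the fitted log2 fold change was -0.03 and all 3 H mice (803.5 to 830 CPM) lay below the mean of 833 CPM in C, so the direction of Rbp4 in H depended on averaging logs.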

How the results depend on the processing

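The calls of Cfd, Nampt and Sfrp5 in H held under DESeq2, RLE scaling, no filter, the 2-group fit, the replicate block, halved counts, the adipocyte-marker scaling and the loss of any 1 mouse. That of Lep did not, and neither did that of Cfd in HH, which was -2.30 without the filter, -2.33 in the 2-group fit, -2.34 with the replicate block and -2.47 with the crossed pairing. With 2 or 3 mice a group and a biological coefficient of variation of 0.68, small differences were not detectable, and the cause of the changes listed here was not tested.

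Of the 10 members, 1 was called in HC under each of DESeq2, no filter, halved counts and marker scaling, in place of 0. Over all genes these settings called 727 of 21464, 1764 of 34443, 295 of 19006 and 726 of 21464, in place of 374. In HH the 1 call became 3 with DESeq2 and without the filter. It became 0 at an adjusted p under 0.05, with the replicate block or with the crossed pairing. The 3 calls without the filter were Retn, Apln and Sfrp5 and did not include Cfd. The count stayed at 1 in the 2-group fit and with marker scaling, but the gene called was Apln in the former and Sfrp5 in the latter. Over all genes, DESeq2 called 2309 and the fit without the filter 2879 of 34443, in place of 1458. The 2-group fit called 1894 of 17667 and marker scaling 444. An adjusted p under 0.05 left 445, the replicate block 1040 and the crossed pairing 1181. In HHC the count of 0 became 2 with DESeq2, 1 with RLE or marker scaling and 3 without the filter. Over all genes these settings called 1185, 577, 461 and 1266 of 34443, in place of 669. In CC_s against C the 1 call became 0 at an adjusted p under 0.05. Differences between effects numbered 0 at an adjusted p under 0.05. At a nominal p under 0.05 they numbered 3 for H and HC, 1 for HH and HHC and 1 for H and HH. The shares of all genes there were 11.8%, 15.5% and 5.79%. For the first and second of these pairs the adjusted counts were 2 and 1 with DESeq2, and 1 and 1 without the filter. Leaving out 1 mouse gave 3 to 4 called members in H, 0 to 2 in HC, 0 to 2 in HH, 0 to 1 in HHC, 1 to 3 in CC_s against C, and 0 to 1 for the difference of HH and HHC. The mice behind these counts were C replicate 3 (without it Lep at 1.89 and Npr3 at 1.2 were also called in CC_s against C), HC replicate 3 (Apln -1.98 and Rarres2 2.77), HC replicate 1 (Nampt -1.31), HH replicate 2 (Apln 2.62 and Sfrp5 2.14) and CCC replicate 1 (Apln -2.65 in HHC). The replicate block changed no call but those of Lep in H and Cfd in HH.

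The scaling to adipocyte markers took their summed counts as library size, so it followed Fabp4, the largest marker in every library but CCC replicate 2. Scaling to the adipocyte markers moved the median log2 fold change of all genes by -0.42 in H, 1.17 in HC, 0.67 in HH, -1.03 in HHC, -1.41 in CC_s against C and 0.72 in CCC against CC_l. It turned the direction of Rbp4 in H (0.25), of Cfd (0.05), Nampt (0.07), Apln (0.97) and Npr3 (0.69) in HC, of Adipoq (0.15) and Nampt (0.12) in HH, of Adipoq (-0.18), Lep (-0.91) and Nampt (-0.82) in HHC, of Adipoq (-0.43), Retn (-0.40), Apln (-1.14) and Npr3 (-0.32) in CC_s against C, and of Lep (0.36), Rbp4 (0.05), Sfrp5 (0.61) and Npr3 (0.61) in CCC against CC_l. Other settings turned only differences near 0. These were Rbp4 in H (0.05 without the filter, 0.04 with the replicate block, 0.03 with halved counts), Npr3 in HHC (0.08 with DESeq2 and with RLE, 0.00 without the filter, 0.10 in the 2-group fit, 0.12 with halved counts, 0.01 with the crossed pairing), Nampt (0.01, replicate block) and Apln (0.00, no filter) in CC_s against C, and Rbp4 (0.06, replicate block), Cfd (-0.01 in the 2-group fit and with halved counts) and Sfrp5 (0.04, no filter) in CCC against CC_l.

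Leaving out 1 mouse turned the direction of 22 of 60 differences, none of them called. Their ranges were -1.0 to 0.12 for Adipoq and -0.33 to 0.95 for Rbp4 in H, -0.61 to 0.79 for Adipoq, -0.39 to 0.61 for Lep and -0.61 to 0.75 for Rbp4 in HC, and -0.21 to 0.60 for Npr3 in HH. In HHC they were -1.55 to 1.65 for Adipoq, -0.17 to 0.28 for Lep, -1.97 to 1.52 for Retn, -3.12 to 1.36 for Rbp4, -1.69 to 2.94 for Rarres2 and -0.29 to 0.24 for Npr3. In CC_s against C they were -0.08 to 1.26 for Retn, -0.21 to 0.34 for Nampt, -0.17 to 0.43 for Apln and -0.26 to 0.08 for Rarres2. In CCC against CC_l they were -1.43 to 0.20 for Adipoq, -1.70 to 0.70 for Rbp4, -0.56 to 0.59 for Cfd, -0.02 to 1.96 for Apln, -0.37 to 0.46 for Sfrp5 and -0.57 to 0.24 for Npr3.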
